A study of Mus musculus with 6 samples.

Results

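The smooth muscle contractile genes described here are 10 genes that encode the contractile machinery of smooth muscle: Acta2, Actg2, Myh11, Myl9, Tpm1, Tpm2, Cnn1, Tagln, Lmod1 and Des. They were taken by symbol from the deposited table, as the locus of that name with an Ensembl transcript and the most counts, and 10 of 10 were found among 53530 such loci and 91725 loci in all. RNA was sequenced from primary endothelial cells (ECs) of mice on a C57BL/6 background, aged 2 months by the labels, in 3 libraries of endothelial Stk11 knockout mice and 3 of wild-type (WT) mice. The knockout mice (Stk11ec-/-, Stk11fl/fl Cdh5Cre) carry floxed Stk11 alleles and a Cre recombinase under the promoter of Cdh5, the VE-cadherin gene, so that the kinase Lkb1 is lost from ECs and their descendants, while the labels give no allele for the WT mice beyond the name. The tissue of the ECs, and whether each library came from a mouse of its own, are not given in the sources used here, so p-values measure the spread between libraries, which may be partly technical.

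In a smooth muscle cell, thin filaments of smooth muscle actin slide along filaments of smooth muscle myosin once the myosin regulatory light chain is phosphorylated, tropomyosin and calponin lie along the actin, and desmin filaments tie the apparatus together. Most of these genes are switched on by serum response factor (Srf) and its partner myocardin, which act at a short A/T-rich element, the CArG box. In blood vessels the set marks the smooth muscle coat and, in part, pericytes, whereas Acta2 and Tagln also mark myofibroblasts, and Tpm1 and Myl9 are made by many cell types that are not muscle.

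Libraries held 22179567 to 55545899 counts, and 17396 genes passed the filter on low counts, all 10 contractile genes among them. Levels are counts scaled to library size (CPM) after TMM normalization, which evens out differences in RNA composition between libraries, and differences are log2 fold changes of Stk11ec-/- over WT from the quasi-likelihood test of edgeR. The targeted gene did not mark the genotype at the level of the whole gene. Stk11 stood at 75.8 ± 13.1 CPM in Stk11ec-/- and 79.0 ± 11.6 CPM in WT libraries (SD, n = 3 each), a count that also takes in exons outside the floxed part. Of the endothelial markers, Pecam1 and Cdh5 were above 25 CPM in every library, while others were near the floor in some (in WT replicate 2, Kdr stood at 2.08 CPM and Robo4, Sox18 and Stab2 at 0). The summed level of 4 Y-linked genes was 22.1 to 41.7 CPM in WT and 0 to 0.279 CPM in Stk11ec-/- libraries, so genotype and the sex of the animals cannot be told apart. WT replicate 3 stood apart from the other 5 libraries in the contractile genes, and the differences of these genes are given with and without it.

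The 10 contractile genes were highest in WT replicate 3 in 10 of 10 cases, against 19.5% of all tested genes. In 6 of the 10 its level was at least 2-fold above every other library, against 1.97% of all tested genes, and the fold over the next library ran from 1.14 for Tpm2 to 39.1 for Actg2. WT replicate 2 was lowest in 8 of the 10, against 15.6% of all tested genes, and Stk11ec-/- replicate 1 in the other 2, Tpm2 and Des. The summed level of the 10 genes was 1144, 1236 and 4430 CPM in Stk11ec-/- replicates 1 to 3 and 738, 342 and 9636 CPM in WT replicates 1 to 3. Acta2 alone made up most of this sum in every library, at 692, 825 and 3782 CPM and at 478, 215 and 6751 CPM in the same order. Both the highest and the lowest total thus came from the WT group. In bulk RNA, a change in the number of cells of a type and a change in the RNA per cell cannot be told apart.

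**Figure D1:**
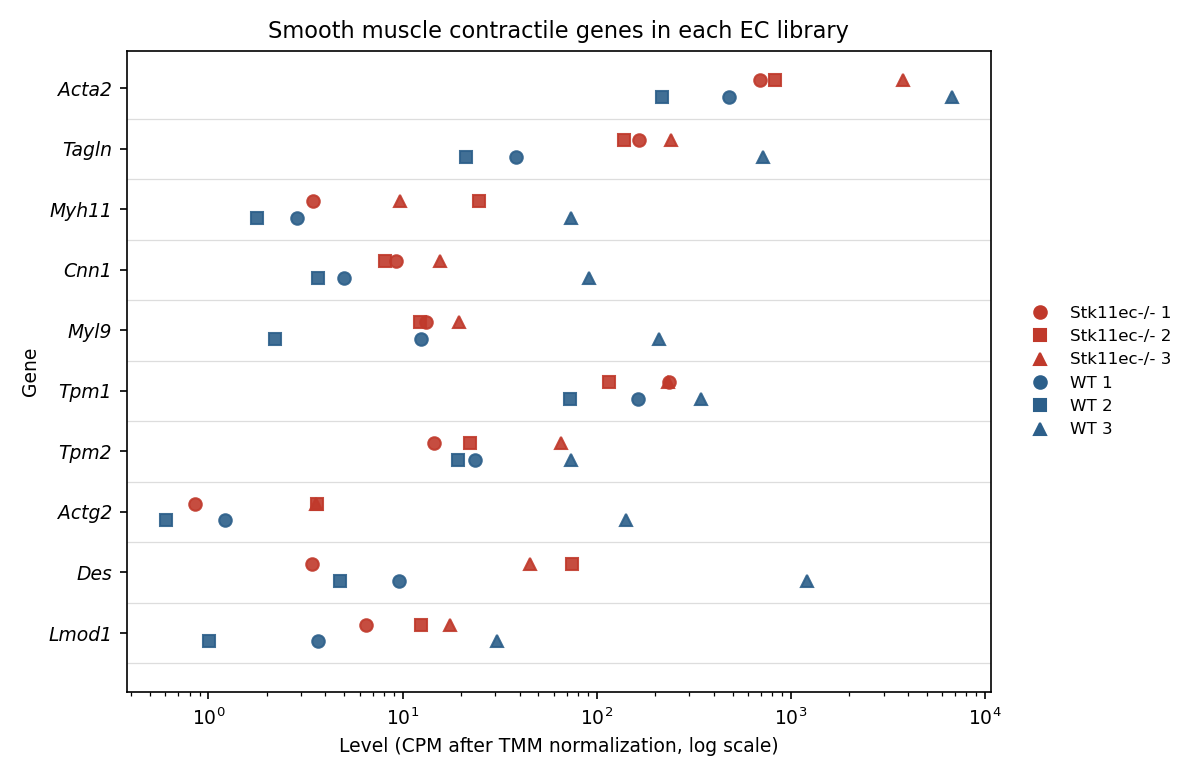
Level of each of the 10 contractile genes in each EC library (CPM, log scale), with Stk11ec-/- libraries in red and WT libraries in blue, 1 point a library and the marker shape giving the replicate number. WT replicate 3 is the right-most point in 10 of 10 genes, and the points of the 2 groups overlap in every gene.

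None of the 10 genes passed the test between genotypes. At an adjusted p under 0.05 in edgeR, 0 of 10 were called, against 0.0747% of the 17396 tested genes (13 genes, 8 higher and 5 lower). Adjusted p ran from 0.682 to 0.998 in edgeR, and 0 of 10 had an unadjusted p under 0.05, against 7.33% of all tested genes. By limma on log2(FPKM + 1) 0 of 10 were called (0.168% of all tested) and 0 had an unadjusted p under 0.05 (7.92% of all tested). By DESeq2 0 of 10 were called (1.24% of all tested) and 1, Myl9, had an unadjusted p under 0.05 (9.31% of all tested). DESeq2 gave no p to 5 of the 10 (Acta2, Tagln, Cnn1, Actg2 and Des) because of a count outlier, against 0.765% of all tested genes. The SE of the log2 fold change was 0.56 to 2.01, with a median of 1.21 against 0.53 over all tested genes, so differences of several fold in these genes could not be resolved with 3 libraries a group. The groups overlapped in all 10 genes, whereas 14.3% of all tested genes had groups free of overlap. In the edgeR estimates 8 of the 10 were below 0, against 48.5% of all tested genes, and by limma 6 of the 10 were above 0, against 70.6%.

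The regulatory sequences are shown for the 2 genes in which a CArG-like element was found. Whether the element has a part in the levels of these genes across libraries was not tested. RefSeq promoters of GRCm38.p6, 250 bases before to 50 bases after each start, were matched for 7 of the 10 genes (Acta2, Cnn1, Myl9, Tpm1, Tpm2, Des and Lmod1). The element searched was CC, a centre of 6 bases with at least 5 A or T, and GG, which reads the same on both strands. It was present in 2 of the 7 promoters, those of Acta2 and Myl9, with 2 matches each, against 9.98% of 32851 promoters with 1 or more and 0.822% with 2 or more. With a centre of A and T alone, the CArG box itself, it was present in 1 of the 7, Myl9, against 1.63% of all promoters. A match describes letters in this window only. Each line below reads 5′ to 3′ with the element in capitals. The chromosome positions are those of the whole printed stretch of 30 bases, and the distances to the start are those of the element.
Acta2 element 84 to 75 bases before the start (chr19:34255438-34255467, minus strand): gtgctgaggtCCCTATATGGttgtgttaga
Acta2 element 34 to 25 bases before the start (chr19:34255388-34255417, minus strand): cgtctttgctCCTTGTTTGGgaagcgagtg
Myl9 element 161 to 152 bases before the start (chr2:156775293-156775322, plus strand): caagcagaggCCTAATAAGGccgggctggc
Myl9 element 99 to 90 bases before the start (chr2:156775355-156775384, plus strand): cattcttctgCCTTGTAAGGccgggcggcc
The GENCODE M21 annotation begins Acta2 further upstream, so that it holds both Acta2 elements within an untranslated exon, and both Myl9 elements lie before the gene in it.

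Acta2 encodes the alpha actin of vascular smooth muscle and lay at chr19:34241090-34255590 on the minus strand (GRCm38). Its level was 692, 825 and 3782 CPM in Stk11ec-/- replicates 1 to 3 and 478, 215 and 6751 CPM in WT replicates 1 to 3. WT replicate 3 and Stk11ec-/- replicate 3 were both far above the other 4 libraries, and the 3 Stk11ec-/- values lay between the lower pair of WT values and WT replicate 3. The log2 fold change was -0.49 (SE 1.26, 95% interval -3.44 to 2.46, edgeR adjusted p = 0.942). Without WT replicate 3 it was 2.35 (edgeR adjusted p = 0.564). The mean over libraries was lower in Stk11ec-/- (1766 ± 1747 against 2481 ± 3700 CPM, SD, n = 3 each), while the geometric mean was higher (1292 against 886 CPM). By limma on log2(FPKM + 1), a fit without TMM, the difference was 0.83 (adjusted p = 0.834).

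Actg2 encodes the gamma actin typical of visceral smooth muscle, at chr6:83512905-83536265 on the minus strand. Its level was 0.854, 3.62 and 3.58 CPM in the Stk11ec-/- libraries and 1.22, 0.604 and 141 CPM in the WT libraries. WT replicate 3 alone was above 4 CPM, 39.1-fold above the next library and 116-fold and 234-fold above its WT partners. Actg2 had the largest difference of the 10 genes, a log2 fold change of -4.16 (SE 1.91, 95% interval -8.64 to 0.32, edgeR unadjusted p = 0.064, adjusted p = 0.682). Without WT replicate 3 the sign turned, to 1.56 (edgeR adjusted p = 0.679).

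Myh11, the smooth muscle myosin heavy chain and the most specific marker of mature smooth muscle in the set, lay at chr16:14194535-14291372 on the minus strand. It was measured at 3.45, 24.7 and 9.65 CPM in the Stk11ec-/- libraries and at 2.84, 1.78 and 73.2 CPM in the WT libraries. As for Acta2, the Stk11ec-/- values lay above WT replicates 1 and 2 and below WT replicate 3, but the highest of them came from replicate 2. Its fold change on the log2 scale was -1.05 (SE 1.37, 95% interval -4.25 to 2.15, edgeR adjusted p = 0.889), and without WT replicate 3 it was 2.44 (edgeR adjusted p = 0.547). A further locus of the same name without an Ensembl transcript held 70 counts over the 6 libraries and was not added.

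Myl9 encodes the regulatory light chain of smooth muscle myosin, the subunit whose phosphorylation starts contraction, and lay at chr2:156775420-156781658 on the plus strand, behind the pair of elements shown above. Its levels were 13.1, 12.3 and 19.5 CPM in the Stk11ec-/- libraries and 12.4, 2.21 and 209 CPM in the WT libraries. The Stk11ec-/- libraries were close to each other and to WT replicate 1, whereas WT replicates 2 and 3 were 94.5-fold apart. Between genotypes the log2 fold change was -2.32 (SE 1.36, 95% interval -5.50 to 0.86, edgeR adjusted p = 0.734). Without WT replicate 3 the estimate was 1.04 (edgeR adjusted p = 0.755), and with all libraries DESeq2 gave an unadjusted p of 0.035 and an adjusted p of 0.459.

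The tropomyosins, which lie along the actin filament, varied least. Tpm1, at chr9:67022590-67049267 on the minus strand, was measured at 236, 116 and 231 CPM in the Stk11ec-/- libraries and 164, 72.4 and 343 CPM in the WT libraries. The estimate for Tpm1 was a log2 fold change of 0.01 (SE 0.56, 95% interval -1.31 to 1.33, edgeR adjusted p = 0.998), the smallest SE of the 10 genes, and 0.72 without WT replicate 3 (adjusted p = 0.750). The interval spans a change of more than 2-fold in either direction. Tpm2, at chr4:43514711-43523765 on the minus strand, stood at 14.5, 22.2 and 65.0 CPM in the Stk11ec-/- libraries and 23.7, 19.4 and 74.0 CPM in the WT libraries. Here the third library of each group stood together above the remaining 4, and WT replicate 3 exceeded Stk11ec-/- replicate 3 by only 1.14-fold. The log2 fold change of Tpm2 was -0.20 (SE 0.71, 95% interval -1.85 to 1.45, edgeR adjusted p = 0.956), and 0.66 without WT replicate 3 (adjusted p = 0.834).

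Cnn1 encodes calponin, an actin-bound inhibitor of the myosin ATPase, and lay at chr9:22099216-22109630 on the plus strand. Its level was 9.27, 8.10 and 15.6 CPM in the Stk11ec-/- libraries and 5.01, 3.66 and 90.8 CPM in the WT libraries. WT replicate 3 was 5.82-fold above the next library, and the other WT libraries were below all Stk11ec-/- libraries. The log2 fold change was -1.59 (SE 1.15, 95% interval -4.29 to 1.10, edgeR adjusted p = 0.778), and it was 1.34 without WT replicate 3 (edgeR adjusted p = 0.538).

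Tagln encodes transgelin (SM22 alpha), a calponin-related actin-binding protein and an early smooth muscle marker, at chr9:45929619-45936058 on the minus strand. Its level was 165, 138 and 240 CPM in the Stk11ec-/- libraries and 38.2, 21.2 and 716 CPM in the WT libraries. The Stk11ec-/- libraries stayed within 1.74-fold of each other, at least 3-fold above WT replicates 1 and 2 and well below WT replicate 3. The log2 fold change over all libraries was -0.51 (SE 1.17, 95% interval -3.24 to 2.22, edgeR adjusted p = 0.937). Without WT replicate 3 it was 2.61, the largest of the set (edgeR adjusted p = 0.229), which did not pass the test. The locus overlaps Pcsk7 and Gm48529 on the opposite strand, and whether reads were counted by strand is not given in the sources used here, so reads of these genes cannot be told apart where they overlap.

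Lmod1 encodes leiomodin 1, which nucleates actin filaments in smooth muscle, at chr1:135324807-135368065 on the plus strand. Its level was 6.48, 12.4 and 17.6 CPM in the Stk11ec-/- libraries and 3.66, 1.01 and 30.4 CPM in the WT libraries. All Stk11ec-/- values again lay above WT replicates 1 and 2 and below WT replicate 3. Over all libraries the log2 fold change was 0.05 (SE 1.07, 95% interval -2.46 to 2.57, edgeR adjusted p = 0.994), and 2.39 without WT replicate 3 (edgeR adjusted p = 0.527). The Lmod1 locus overlaps that of Gm22796, with the assignment of reads likewise not given.

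Des encodes desmin, the intermediate filament protein of muscle cells. Its locus in the table ran from chr1:75343839-75368579 on the plus strand, beginning 16490 bases before the annotated gene, and its values belong to that assembled model. The level was 3.40, 74.1 and 45.3 CPM in the Stk11ec-/- libraries and 9.53, 4.73 and 1207 CPM in the WT libraries. Des had the widest spread of the set, 127-fold and 255-fold between WT replicate 3 and the other WT libraries and 21.8-fold within the Stk11ec-/- group. Between genotypes it differed by a log2 fold change of -3.32 (SE 2.01, 95% interval -8.03 to 1.40, edgeR adjusted p = 0.742), and 2.52 without WT replicate 3 (adjusted p = 0.630). The Des locus overlaps that of Gm15179, and how reads were assigned where they overlap is not given in the sources used here.

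Leaving out WT replicate 3 turned the sign of 8 of the 10 log2 fold changes, against 13.7% of all tested genes. WT replicate 3 was the highest library in all 10 genes, so leaving it out lowers the WT level of each by construction, and the counts and shares without it describe these libraries and test nothing. The median over the 10 genes moved from -0.78 with all libraries to 1.95 without WT replicate 3, beside medians of 0.02 and 0.05 over all tested genes. Without it, 10 of 10 genes had a log2 fold change above 0 (0.66 to 2.61), against 53.1% of all genes tested, and 0 of 10 passed after adjustment in edgeR, against 0.0109%. In 5 of the 10 (Acta2, Tagln, Myh11, Cnn1 and Lmod1) all 3 Stk11ec-/- libraries lay above WT replicates 1 and 2 and below WT replicate 3, against 2.28% of all tested genes. With Stk11ec-/- replicate 3 left out as well, 9 of 10 were above 0, against 51.1%, and Tpm2 stood at -0.23. With WT replicate 3 kept, the median also turned with the model, to 0.079 with the replicate number as a block, 0.042 by limma on log2(FPKM + 1) and 0.28 with a pseudocount of 0.1. The direction of the set between genotypes thus changed both with WT replicate 3 and with the model. The limma fits used deposited FPKM without TMM, so they differed from edgeR in both scaling and averaging. Averaging on the log scale with TMM kept can be read from geometric means of CPM. The geometric means were higher in Stk11ec-/- for Acta2 (1292 against 886), Tagln (176 against 83.4) and Myh11 (9.36 against 7.18), whose edgeR estimates were below 0. Tpm1 and Lmod1 were also higher and Cnn1, Myl9, Tpm2, Actg2 and Des lower, each with the sign of edgeR. The part of the scaling was not tested.

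**Figure D2:**
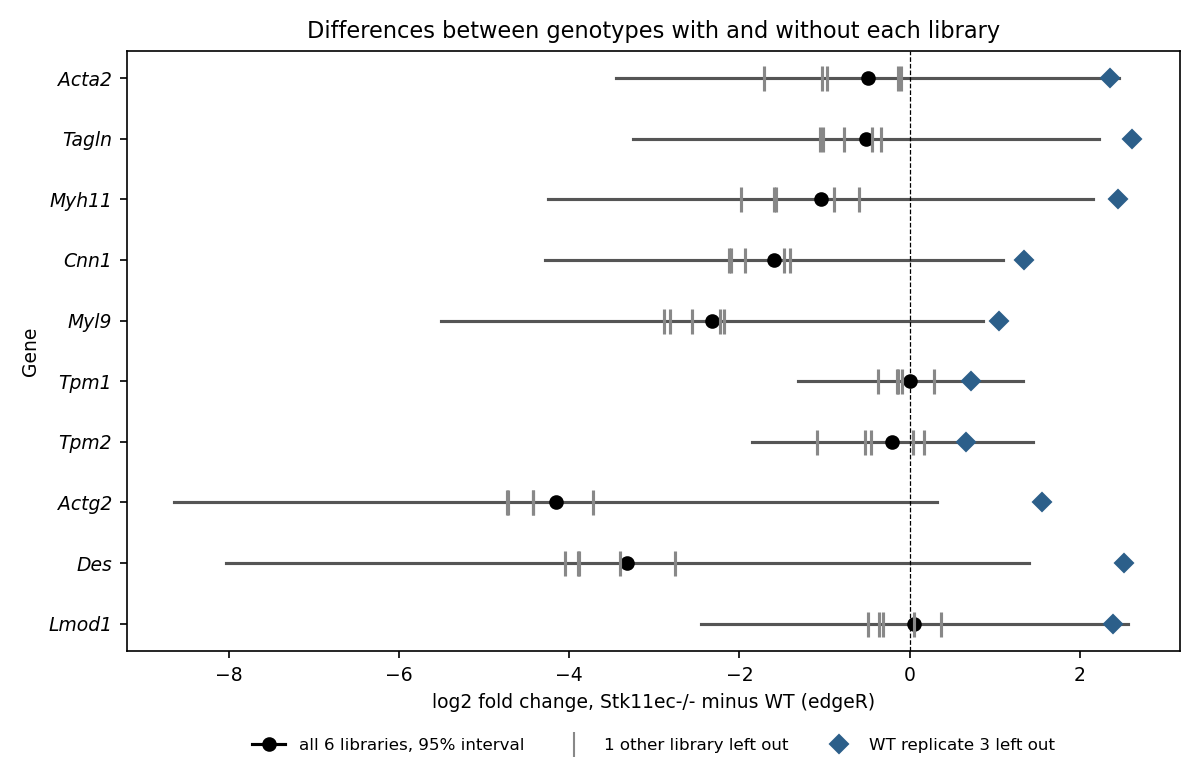
log2 fold change (Stk11ec-/- minus WT, edgeR) of each contractile gene over all 6 libraries (black point, bar for the 95% interval), with 1 of the other 5 libraries left out (grey ticks) and with WT replicate 3 left out (blue diamonds). Every bar crosses 0, and the diamonds all lie to the right of 0, from 0.66 to 2.61.

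Compared per length, as deposited FPKM, the genes kept a clear leader. Acta2 was highest in all 6 libraries, with a median FPKM of 324 (64.7 to 1791), followed by Tagln at a median of 71.8 and Tpm1 at 23.5. Myl9 (10.3), Tpm2 (6.53) and Des (5.09) came next in median FPKM, and Cnn1 (2.98), Lmod1 (2.24), Actg2 (1.14) and Myh11 (0.66) were lowest. The range over libraries of each gene overlapped that of its neighbour in this order, so the order of neighbours is not fixed by these libraries. Even so, Acta2 exceeded Tagln in 6 of 6 libraries, and Actg2 exceeded Myh11 in FPKM in 5 of 6.

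Acta2 contributed 68.9% to 88.7% of the summed FPKM of the 10 genes, the largest share in Stk11ec-/- replicate 3. Set against the cytoplasmic actin Actb, Acta2 FPKM was 11.6%, 11.5% and 59.5% of Actb FPKM in Stk11ec-/- replicates 1 to 3 and 10.9%, 2.80% and 72.6% in WT replicates 1 to 3. The smooth muscle actin thus came close to the level of the cytoplasmic actin in the third library of both groups only. Actg2 was 2.87% of the FPKM of both smooth muscle actins in WT replicate 3 and 0.133% to 0.611% in the other 5 libraries, so Actg2 stood out there more than Acta2 did. In Stk11ec-/- replicate 3, where Acta2 was second highest, this share was at its lowest, 0.133%. Myh11 FPKM was 4.97% of that of Myh9, a non-muscle myosin heavy chain, in WT replicate 3 and 0.198% to 1.69% elsewhere. The share of Tpm2 in the FPKM of Tpm1 and Tpm2 ranged from 11.2% in Stk11ec-/- replicate 1 to 36.7% in Stk11ec-/- replicate 3 and did not follow WT replicate 3 (30.8%). Annotated transcripts of Acta2 and Actg2 share 0% of their 50-base stretches with their actin relatives, and Myh11 shares 0.340% of its stretches with Myh9.

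**Figure D3:**
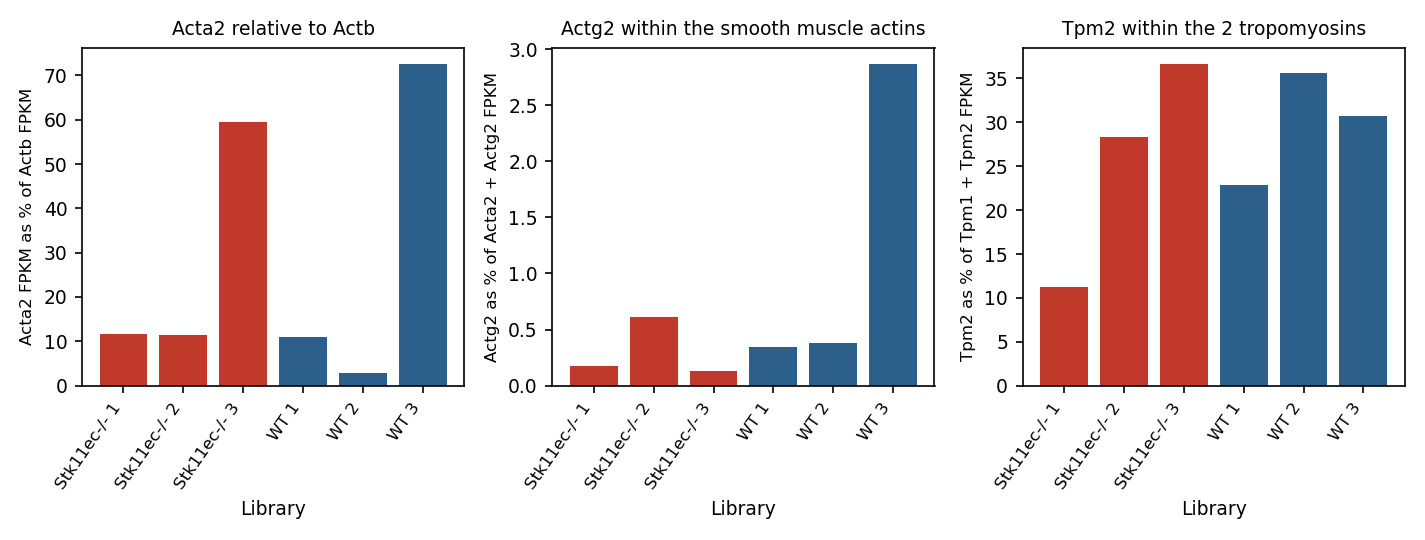
Percent of FPKM in each library (Stk11ec-/- red, WT blue, 1 bar a library) for Acta2 relative to Actb, Actg2 within Acta2 plus Actg2, and Tpm2 within Tpm1 plus Tpm2. Acta2 reaches 59.5% and 72.6% of Actb in the third library of each group, Actg2 reaches 2.87% in WT replicate 3 alone, and the Tpm2 share is 30.8% there.

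The 10 genes varied together across libraries. Over the 6 libraries, 45 of 45 pairs had a positive Pearson correlation of log2 CPM, with a median of 0.845, from 0.538 for Tpm1 and Des to 0.964 for Myh11 and Des. Without WT replicate 3 the median over 5 libraries was 0.708, and the lowest pair, again Tpm1 and Des, fell to 0.072. The 6 points share their library's depth and scaling, and 1 library carries much of the spread, so these values are a description. Cnn1 followed the mean of the other 9 genes most closely (r = 0.965) and Tpm1 least (r = 0.754). Lmod1 had the closest likeness once WT replicate 3 was left out (r = 0.983, 5 libraries).

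Outside the set, the genes whose pattern was most like the mean of the 10 over 6 libraries were Adamts12, a secreted metalloprotease (r = 0.990), Spry4, an inhibitor of receptor tyrosine kinase signalling (r = 0.989), the locus of Pdlim7, an actin-associated PDZ and LIM domain protein, joined with Mir6945 (r = 0.985), Cd44, the hyaluronan receptor (r = 0.983), and Apex1, a DNA repair endonuclease (r = 0.981). Adamts12 stood at 49.9, 72.1 and 68.8 CPM in the Stk11ec-/- and 48.2, 34.5 and 163 CPM in the WT libraries. The spread of Adamts12 was far smaller than that of Des or Actg2, and its log2 fold change was -0.37 (SE 0.57, edgeR adjusted p = 0.906). Cd44, at 206, 223 and 292 CPM in the Stk11ec-/- and 210, 159 and 541 CPM in the WT libraries, was likewise highest in WT replicate 3 and lowest in WT replicate 2. Without WT replicate 3 the 5 correlations were 0.949 to 0.973 over 5 libraries. The genes were chosen by their correlation over libraries that include these, so high values follow in part from the choice and are a description.

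Other parts of the contractile apparatus were counted in the same way. Of 30 such genes (myosin kinase and phosphatase subunits, dense-body and membrane proteins), 26 were tested. In edgeR 0 of 26 were called, against 0.0747% of all tested genes. At an unadjusted p under 0.05, 2 stood higher and 1 lower in Stk11ec-/- (4.36% and 2.97% of all tested genes). Limma and DESeq2 called 0 (0.168% and 1.24% of all tested genes). Of the genes tested in edgeR, limma did not test Synpo2, Synm, Kcnmb1, Nexn, Ldb3 and Fbxl22, and DESeq2 gave no p to Ppp1r14a and Kcnmb1. WT replicate 3 was highest in 10 of the 26, against 19.5% of all tested genes, and the median log2 fold change was 0.06 with all libraries and 0.75 without WT replicate 3, where 22 of 27 tested were above 0, against 53.1% of all. The lowest p belonged to Prkg1, the cGMP-dependent kinase that relaxes smooth muscle, at 49.0, 31.6 and 54.6 CPM in the Stk11ec-/- and 21.7, 12.6 and 20.0 CPM in the WT libraries. Its groups did not overlap and WT replicate 3 did not stand out, with a log2 fold change of 1.32 (SE 0.35, edgeR unadjusted p = 0.0060, adjusted p = 0.565). Cald1, encoding the actin-binding caldesmon, had a log2 fold change of 0.97 (SE 0.40, edgeR adjusted p = 0.672). The locus of Hspb6, a small heat shock protein of smooth muscle, joined with Gm38670, had one of -1.37 (SE 0.56, adjusted p = 0.672), and Csrp1, an LIM protein of smooth muscle, one of -0.82 (SE 0.35, adjusted p = 0.679), which was -0.40 without WT replicate 3 and -0.45 by limma. Mylk, the kinase that phosphorylates Myl9, was chosen after its values were seen. Like Myl9, it was highest in WT replicate 3 and lowest in WT replicate 2, with 28.2, 21.7 and 13.3 CPM in the Stk11ec-/- and 19.3, 5.27 and 151 CPM in the WT libraries (log2 fold change -1.47, SE 1.05, adjusted p = 0.776).

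Cytoplasmic relatives of the same protein families were listed as 17 genes, of which 14 were tested. In 3 of the 14 WT replicate 3 was highest, against 19.5% of all tested genes. The median log2 fold change was 0.20 (0.29 without WT replicate 3). In edgeR 0 of 14 were called (0.0747% of all tested genes) and 0 had an unadjusted p under 0.05 (7.33%). Limma, which did not test Tagln3 and Tmod1, and DESeq2 called 0 (0.168% and 1.24% of all tested genes). The 4 with the smallest p, Tpm4, Myh10, Tmod3 and the locus of Tpm3 joined with Nup210l, had log2 fold changes of 0.83, 0.71, 0.76 and 0.51. Without Stk11ec-/- replicate 1 Tpm4 stood at 0.46 and Tmod3 at 0.39, without WT replicate 2 Myh10 stood at 0.46, and without WT replicate 3 the Tpm3 locus stood at 0.32. Tpm4, a tropomyosin of non-muscle cells, stood at 977, 615 and 409 CPM in the Stk11ec-/- and 412, 299 and 411 CPM in the WT libraries, highest where Tpm2 was lowest (edgeR adjusted p = 0.682). Actb stood at 6127 to 12982 CPM over all libraries, a range of about 2-fold that is narrow beside the 31.4-fold between the WT libraries in Acta2.

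Regulators of contractile genes (Srf, myocardin and members of TGF-beta signalling among them) were listed as 27 genes, all tested. In edgeR 0 of 27 were called, against 0.0747% of all tested genes, and 1, Rock2, stood higher at an unadjusted p under 0.05, against 4.36%. Limma called 0, against 0.168% of all tested genes, and DESeq2 called 1, again Rock2, against 1.24%. Limma did not test Myocd and Klf5, and DESeq2 gave no p to Tgfb3. Rock2, a kinase downstream of Rhoa that keeps myosin phosphorylated, stood at 387, 283 and 217 CPM in the Stk11ec-/- and 140, 119 and 131 CPM in the WT libraries. The groups did not overlap, and the log2 fold change was 1.18 (SE 0.29, edgeR unadjusted p = 0.0042, adjusted p = 0.558). By DESeq2 its adjusted p was 0.048. Rock1, Rhoa and Prrx1, a mesenchymal transcription factor, had log2 fold changes of 0.71, 0.51 and -1.07, with edgeR adjusted p of 0.682, 0.731 and 0.742. Rhoa stood at 0.29 without Stk11ec-/- replicate 1, and Prrx1 at -2.12 without Stk11ec-/- replicate 3 and at -0.63 without Stk11ec-/- replicate 2. In 7 of the 27 WT replicate 3 was highest, against 19.5% of all tested genes. Srf and Myocd were chosen after their values were seen, as the factors that act at the CArG box. Srf stood at 28.9, 33.5 and 60.0 CPM in the Stk11ec-/- and 26.6, 30.2 and 54.6 CPM in the WT libraries, highest in the third library of each group. Myocd, encoding myocardin, stood at 13.8, 6.00 and 2.55 CPM in the Stk11ec-/- and 6.50, 2.95 and 17.9 CPM in the WT libraries, highest in WT replicate 3 and lowest in Stk11ec-/- replicate 3.

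Markers of other cell types moved with the libraries as well, and their part in the result was not tested. All 10 pericyte markers were found, and their summed level was 62.0 to 525 CPM in Stk11ec-/- and 146 to 832 CPM in WT libraries, highest in WT replicate 3 and then Stk11ec-/- replicate 3. Most of this came from Pdgfrb, a receptor of mural cells and fibroblasts, at 780 CPM in WT replicate 3. Cspg4, a proteoglycan of mural cells, was also highest there, at 44.0 CPM against 1.44 to 34.3 CPM in the other 5 libraries. Rgs5, a defining marker of pericytes, was at 0 CPM in WT replicate 3, which allows up to 0.078 CPM (3 counts, counting error only), and reached at most 1.54 CPM in any library. Abcc9, Vtn, Ndufa4l2 and Cox4i2 were also at 0 in WT replicate 3. All 18 fibroblast markers were found and summed to 5610 to 19024 CPM in Stk11ec-/- and 7669 to 17039 CPM in WT libraries, with the third library highest in each group. Dpt was at 0 in every library, and Lum was at 0 in WT replicate 3. Col1a1, the main fibrillar collagen of fibroblasts, stood at 36.9, 188 and 4925 CPM in the Stk11ec-/- and 1773, 990 and 2557 CPM in the WT libraries, highest in Stk11ec-/- replicate 3. WT replicate 3 was highest in 6 of the 16 fibroblast markers tested (Col1a2, Col5a2, Pdgfra, Fbln2, Mfap5 and Loxl1), against 19.5% of all tested genes, with Col1a2 at 3486 CPM and Pdgfra at 106 CPM there.

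All 21 pan-endothelial markers were found and summed to 1915, 5848 and 475 CPM in Stk11ec-/- replicates 1 to 3 and 1181, 694 and 696 CPM in WT replicates 1 to 3. WT replicate 3 was close to WT replicate 2 in this sum, but single markers differed in both directions. Cdh5 (101 against 178 CPM), Eng (134 against 336 CPM) and Esam (6.21 against 52.5 CPM) were lower in WT replicate 3 than in WT replicate 2. They were lower than in WT replicate 1 too (222, 368 and 49.1 CPM). Kdr (16.7 against 2.08 CPM), Tie1 (26.0 against 7.85 CPM) and Emcn (39.2 against 21.2 CPM) were higher in WT replicate 3 than in WT replicate 2. In WT replicate 3, 0 of the 21 markers were at 0, as against 2 in WT replicate 1 (Cldn5 and Sox17), 3 in WT replicate 2 (Sox18, Robo4 and Stab2) and 1 in Stk11ec-/- replicate 1 (Sox17). Between genotypes, 18 of the 21 markers had a log2 fold change above 0 and 3 below, against 48.5% of all tested genes below 0. Their median was 2.47. In edgeR 0 of 21 were called (0.0747% of all tested genes), and 4 stood higher in Stk11ec-/- by an unadjusted p under 0.05 (4.36%). Limma, which did not test every marker (Tek was left out), called 0 (0.168%), and DESeq2 called 2 (1.24%), Plvap (adjusted p = 0.0024) and Kdr (adjusted p = 0.040). Kdr stood at 12.6, 237 and 27.9 CPM in the Stk11ec-/- and 4.11, 2.08 and 16.7 CPM in the WT libraries, so its groups overlapped. The 9 mesothelial markers summed to 146 to 968 CPM in Stk11ec-/- and 182 to 1958 CPM in WT libraries, with WT replicate 3 lowest of its group and Upk3b and Krt8 at 0 there. The 12 leukocyte markers summed to 9.56 to 17.9 CPM in Stk11ec-/- and 17.6 to 40.6 CPM in WT libraries, and Ptprc, the defining marker, was at 0 in 5 libraries. The 31 markers of skeletal and heart muscle were near the floor, at 9.11 to 14.7 CPM in Stk11ec-/- and 14.5 to 15.7 CPM in WT libraries, with 13 of 31 at 0 in every library. The heart actin gene Actc1 was at 0 in all 6, and the skeletal actin gene Acta1 was at most 4.78 CPM.

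**Figure D4:**
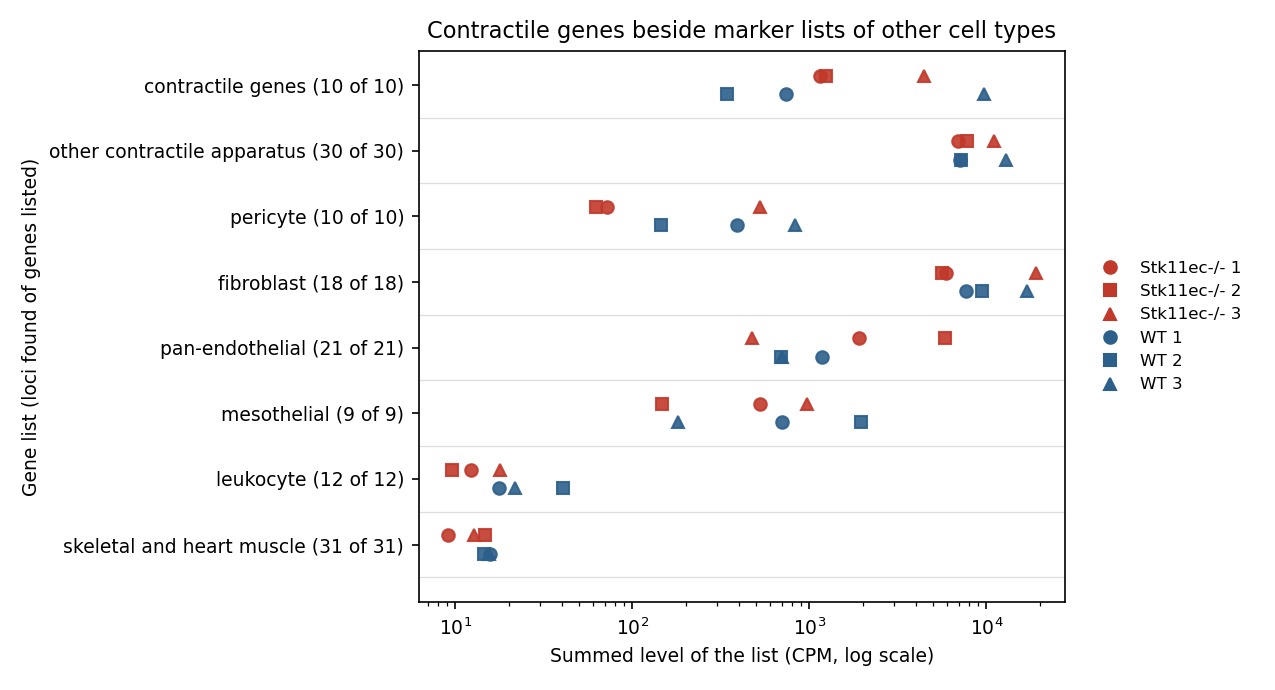
Summed level of the contractile genes and of marker lists of other cell types in each EC library (CPM, log scale), with Stk11ec-/- libraries in red, WT libraries in blue and the marker shape giving the replicate number. The contractile sum, which is mostly Acta2, runs from 342 CPM in WT replicate 2 to 9636 CPM in WT replicate 3, whereas the skeletal and heart muscle sum stays between 9.11 and 15.7 CPM.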

How the data were processed

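RNA from primary ECs of 3 Stk11ec-/- and 3 WT libraries was sequenced, and 1 table of the whole series was used. The authors deposited counts per assembled locus and library, as whole numbers that were not normalized, and FPKM values, which the authors had divided by transcript length and library size. The methods name HISAT2, StringTie and GRCm38, while mm9, BWA, TopHat and Cufflinks stand in the submitters' processing notes, and versions are not given in the sources used here. Positions of 8 of the 10 loci equal those of GENCODE M21 on GRCm38. Libraries held 22179567 to 55545899 counts. Loci with no gene name held 0.359% to 0.887% of them, and these, like all 38195 loci without an Ensembl transcript, entered neither library sizes nor tests.

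Counts were tested with edgeR 4.0.16 in R 4.3.3 (TMM, default filter on low counts, quasi-likelihood test, genotype only), with Benjamini-Hochberg adjustment over 17396 genes at 0.05. The common biological coefficient of variation was 0.628. The filter left out 36134 loci. Intervals are 95%. Alternatives were median-ratio size factors, the replicate number as a block, no filter, a filter at a mean FPKM of 5 or more, DESeq2 1.42.0, limma 3.58.1 on log2(FPKM + 1) and log2(FPKM + 0.1) for loci with a mean FPKM of at least 1, all loci with a gene name, each library left out in turn, and both libraries of replicate 3 left out. All pairs of libraries differed by more than sampling noise. Figures were drawn with matplotlib 3.10.9 under Python 3.11.15.

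The contractile genes, the other lists and the tests were chosen with earlier results of these data known. All 10 genes are named, with the 4 tested genes of smallest p from each of the 3 related lists and the 5 genes with a given name and a mean of at least 10 CPM most correlated with the set. Others are said to be chosen after their values were seen, or are markers.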

Additional observations from a re-analysis of the deposited data

How the results depend on the processing

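The count of contractile genes called was 0 under every alternative run, and with this spread between libraries that says nothing about stability. The number of all genes called, 13, was 36 with no filter on low counts, 216 by DESeq2, 0 without both libraries of replicate 3 and 2 to 4 with 1 library left out. DESeq2 called 1 regulator, Rock2. Deviations from the group means correlated at 0.269, -0.245 and 0.045 between same-numbered libraries, and at -0.351 to 0.267 between the others. With 3 libraries a group these values cannot show whether the replicate numbers pair the samples. With the replicate block 1 gene was called in all, and the median log2 fold change of the contractile genes, -0.78, was 0.079. The block gave Acta2 0.54, Tagln 1.25 and Myh11 0.32.

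The median was 0.042 by limma on log2(FPKM + 1), 0.28 with a pseudocount of 0.1, 1.21 without both libraries of replicate 3, and -1.40 to 1.95 with 1 library left out, positive only without WT replicate 3. By limma with a pseudocount of 1 and then 0.1, Acta2 stood at 0.83 and 0.84, Tagln at 1.30 and 1.36, Myh11 at 0.032 and 0.47 and Tpm2 at 0.052 and 0.059, and Cnn1 turned to 0.084 with 0.1 only. These fits average log values of deposited FPKM without TMM, while edgeR compares mean levels after TMM. Against 51.5% in edgeR, 70.6% of genes were above 0 by limma. Without both libraries of replicate 3 Acta2 was at 1.13, Tagln 2.35, Myh11 2.60, Cnn1 1.004, Myl9 0.80, Actg2 1.29 and Des 2.44. Tpm1 was at -0.013 with median-ratio size factors and by DESeq2.

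With 1 library left out, log2 fold changes ran from -1.71 to 2.35 for Acta2, -1.05 to 2.61 for Tagln, -1.98 to 2.44 for Myh11, -2.12 to 1.34 for Cnn1, -2.88 to 1.04 for Myl9, -0.38 to 0.72 for Tpm1, -1.09 to 0.66 for Tpm2, -4.73 to 1.56 for Actg2, -4.05 to 2.52 for Des and -0.49 to 2.39 for Lmod1. They ran from -0.73 to 0.62 for Adamts12, -0.33 to 0.30 for Spry4, -0.66 to 0.44 for Pdlim7;Mir6945, -0.64 to 0.38 for Cd44 and -0.35 to 0.25 for Apex1. These 5 stood at 0.16, 0.19, 0.15, 0.14 and 0.17 by limma with a pseudocount of 1, at 0.24, 0.24, 0.18, 0.15 and 0.20 with 0.1, and at 0.56, 0.23, 0.35, 0.22 and 0.15 without both libraries of replicate 3. Other changes of direction have causes that were not tested.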
